A study of Mus musculus with 3 samples.

Results

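The comparison concerns IFN-γ treatment of mouse colon organoids for 48 h against treatment for 24 h, with 1 library at each time. Its members are the 2 libraries whose labels give IFN-γ treatment for 48 h and for 24 h, out of 3 libraries in the series, and the untreated library is used as a level only. The organoids were epithelial cultures from mouse colon, a tissue that the labels call colon epithelium, and all 3 were kept in full medium (FM), which holds Wnt, R-spondin, EGF and Noggin and enriches for stem and progenitor cells. IFN-γ was added at 50 ng/ml. Dissociated cells were sorted with DAPI to remove dead cells, and sc-RNAseq counted transcripts as unique molecular identifiers (UMIs) in droplets. No replicate library exists at either time, so the spread between cultures cannot be estimated and no test or p-value across genes is given. All intervals cover counting error at 95% only.

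IFN-γ binds a receptor on epithelial cells and activates the kinases JAK1 and JAK2. Genes with a GAS element, among them Irf1, Socs1 and Ciita, respond within hours, and some of their products act on further genes. CIITA is the coactivator that switches on MHC class II genes, while SOCS1 is a feedback inhibitor of the receptor's kinases. MHC class II molecules present peptides to CD4+ T cells, and epithelial cells make them mainly under IFN-γ.

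A barcode counted as a cell if it held 5000 UMIs or more, 400 genes or more and no more than 15% of mitochondrial UMIs, which left 917 cells at 24 h, 2934 cells at 48 h and 1058 untreated cells. The 24 h cells were much deeper, with a median of 68784 UMIs per cell against 10772 at 48 h, and the deepest cell held 638698 UMIs at 24 h and 86151 at 48 h. The 24 h and 48 h libraries shared 101 barcodes, 1 of them among kept cells. After thinning each cell to 5000 UMIs the median numbers of genes detected were 2211 and 2337, while the median mitochondrial share was 2.12% at 24 h and 6.14% at 48 h. Counts were therefore compared in 2 ways, summed over all kept cells and summed over depth-matched cells. The depth-matched set holds 438 cells from each library, drawn in equal numbers from bins of UMI count, with medians of 18886.5 UMIs at 24 h and 18987 UMIs at 48 h. These cells come from the shallower part of the 24 h library and the deeper part of the 48 h library. Their median mitochondrial share was 4.795% at 24 h and 3.64% at 48 h, the reverse order of that over all kept cells. Matching on depth thus did not level this other property of the cells. All 14 epithelial identity genes were measured and none differed 2-fold (list median −0.13 over all cells and −0.23 in depth-matched cells on the log2 scale). Marker genes of immune cells summed to 4.28 CPM (counts scaled to a total of 1000000 per library) at 24 h and 5.86 CPM at 48 h, with 2 of 16 genes above the count minimum and the common leukocyte gene Ptprc at 0 in both. Those of stromal and vascular cells summed to 12.3 and 19.8 CPM with 4 of 16, and those of blood to 0.98 and 2.03 CPM with 1 of 5.

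Over all kept cells 13772 of 32285 genes had at least 50 counts in both libraries together. Of these, 1010 were at least 2-fold higher at 48 h, which is 7.33%, and 180 were at least 2-fold lower, which is 1.31%. The median log2 ratio of 48 h over 24 h was 0.23, and with TMM scaling, which moved every ratio by −0.26, the counts were 423 higher and 371 lower. With this scaling 11 of 35 list medians that were slightly positive became negative: those of IFN-γ signalling, immunity-related GTPases, MHC class I, ISGF3-type, cell death, tuft cell, ER chaperone, integrated stress, Ly6, keratin and Notch genes. The direction of these lists over all cells is therefore not settled by the counts alone. In depth-matched cells the balance turned: of 11426 genes, 56 (0.49%) were at least 2-fold higher and 428 (3.75%) were at least 2-fold lower, with a median of −0.04. Of the 1010 higher genes, 487 had at least 50 counts in depth-matched cells, where 38 stayed at least 2-fold higher. Of the 180 lower genes, 113 had enough counts there and 69 stayed at least 2-fold lower. The genes described first had at least 20 CPM in the higher of both libraries and passed 2-fold in the same direction in both sets. They were 8 higher and 25 lower genes. Some met the level limit only in the library where they are high, such as Acod1 (5.56 and 31.2 CPM) and Zg16 (22.2 and 0.55 CPM). Both counts are therefore a description only. Of the 8 higher genes, 3 encode the chains of classical MHC class II molecules.

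**Figure D1:**
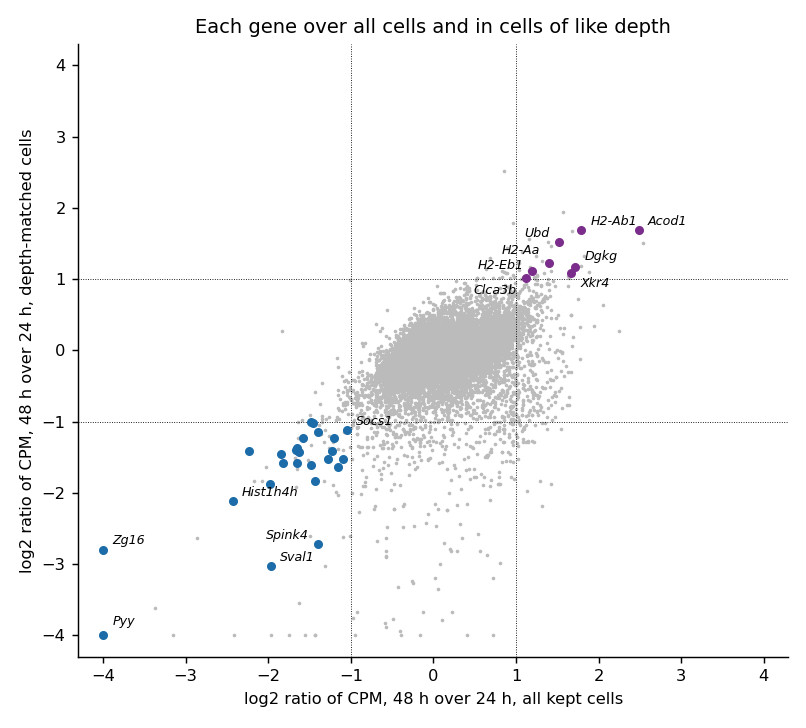
Each grey point is a gene with at least 50 counts in both sets, with its log2 ratio of CPM (48 h over 24 h) over all kept cells on the horizontal axis and in the 438 depth-matched cells per library on the vertical axis, values beyond 4 drawn at 4. Purple points are the 8 genes and blue points the 25 genes past 2-fold (dotted lines) in both sets with at least 20 CPM in the higher library. Many genes right of the upper line lie near or below 0 on the vertical axis.

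MHC class II genes were the list with the highest median in both sets among 35 lists. Over all cells 5 of 10 measured members were at least 2-fold higher at 48 h and none was 2-fold lower, with a list median of 1.03, beside 7.33% of all genes higher. In depth-matched cells 3 of 9 were at least 2-fold higher, beside 0.49% of all genes, and the median was 0.76, against −0.04 for all genes. The summed level of the list was 155.5 CPM untreated, most of it from Ifi30 (128 CPM), 2077 CPM at 24 h and 4174 CPM at 48 h.

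H2-Ab1, the beta chain of I-A (chr17:34257689-34269419, plus strand, GRCm38), stood at 0.04 CPM untreated, 162 CPM at 24 h and 562 CPM at 48 h. The log2 ratio of 48 h over 24 h was 1.79 (1.76 to 1.82) over all cells and 1.69 (1.62 to 1.76) in depth-matched cells. The level at 48 h was thus 3.47 times that at 24 h, and the untreated library held 2 UMIs in all. H2-Aa, the alpha chain of I-A, had no UMI in untreated cells, 152 CPM at 24 h and 401 CPM at 48 h, with log2 ratios of 1.40 and 1.23. H2-Eb1, the beta chain of I-E, had 0.14, 161 and 368 CPM, with log2 ratios of 1.20 and 1.11. With TMM scaling the log2 ratios were 1.53 for H2-Ab1, 1.14 for H2-Aa and 0.93 for H2-Eb1, the last under 2-fold. The 3 chain genes stood at nearly the same level at 24 h and were ordered H2-Ab1, H2-Aa, H2-Eb1 at 48 h. Counting intervals of the ratios did not overlap over all cells, while those of H2-Aa (1.16 to 1.31) and H2-Eb1 (1.03 to 1.19) overlapped in depth-matched cells.

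Cd74, the invariant chain that escorts class II molecules, was the most abundant member, with 0.38 CPM untreated, 1220 CPM at 24 h and 2318 CPM at 48 h. Its log2 ratio was 0.93 over all cells and 0.90 in depth-matched cells, just under the 2-fold limit. The peptide loading chains H2-DMa and H2-DMb1 were lower in level and in ratio, at 73.4 and 116 CPM for H2-DMa (0.66 and 0.57) and 80.8 and 134 CPM for H2-DMb1 (0.73 and 0.76). H2-DMb2, a near copy of H2-DMb1 with which reads can be confused, had 14 UMIs at 24 h and 113 at 48 h, a log2 ratio of 3.60. Ctss and Ifi30, a protease and a thiol reductase of the endosome that many cells express without IFN-γ, had log2 ratios of 0.37 and −0.25 over all cells and of −0.01 and −0.23 in depth-matched cells. The other 2 members, H2-Oa and H2-Ob, had at most 1 UMI in each library. Apart from Ciita, described below, the differences therefore lay with the chain genes, Cd74 and H2-DM, and both endosomal enzymes were closer to level.

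**Figure D2:**
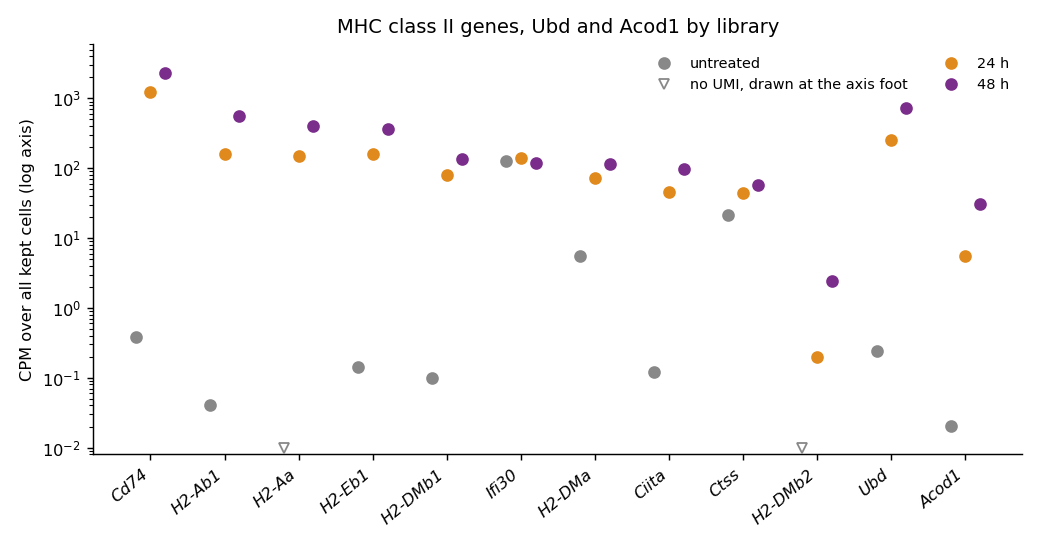
Level in CPM (log axis, libraries with no UMI as open triangles at the foot) of the 10 measured MHC class II genes and of Ubd and Acod1, summed over all kept cells of the untreated (grey), 24 h (orange) and 48 h (purple) libraries, 1 library each. H2-Ab1 stands at 0.04, 162 and 562 CPM, while Ifi30 lies between 117 and 139 CPM in all 3 libraries.

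Ciita, the coactivator itself, had 0.12 CPM untreated, 45.0 CPM at 24 h and 98.7 CPM at 48 h. Its log2 ratio was 1.14 over all cells and 0.65 in depth-matched cells. Unlike the chain genes, its ratio varied with the depth of the cells compared: 0.87 in cells of 5000 to 10000 UMIs, 0.02 at 10000 to 20000, −0.04 at 20000 to 40000 and 1.21 at 40000 or more. H2-Ab1 gave 1.93, 2.02, 1.64 and 1.70 in the same ranges, and Cd74 gave 1.04, 1.0, 0.90 and 0.89. These ranges held 95, 131, 91 and 600 cells at 24 h and 1379, 713, 668 and 174 cells at 48 h, and within the highest one the depths still differed (medians of 90986 and 47534.5 UMIs).

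The difference was seen across cells. After thinning to 5000 UMIs, a cell at 24 h held a median of 9 UMIs of the class II list, with 3 at the 10th and 18 at the 90th percentile. At 48 h the median was 20, with 12 at the 10th and 30 at the 90th percentile, so the 2 distributions overlapped. An H2-Ab1 UMI was found in 49.0% of thinned cells at 24 h and 90.4% at 48 h. Barcodes below 2000 UMIs carried the list at 1757 CPM at 24 h and 3557 CPM at 48 h, close to the level in cells. They are taken here as mostly free RNA, which was not tested, so part of the UMIs in any single cell can come from it. The lowest barcode held 851 UMIs at 24 h and 1624 at 48 h, so these barcodes cover unlike ranges in the 2 libraries. The number of barcodes below 2000 UMIs was 15994 and 14296.

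Depth-matched cells were also divided by the share of their UMIs in DNA replication and mitotic genes, at the median of 34 per 5000 thinned UMIs, which gave 217 cells of low and 221 cells of high share from each library. H2-Ab1 had log2 ratios of 1.64 and 1.77 in cells of low and high share, H2-Aa of 1.20 and 1.31, and Cd74 of 0.90 and 0.92. The share is a range and not a cell type: 63 cells at 24 h and 76 cells at 48 h lay within 2 UMIs of the limit. Within each class the libraries were no longer matched in depth. At low share the medians were 20212 UMIs at 24 h and 15802 at 48 h, and at high share 18015 and 24448. The class II difference had nearly the same size in both classes.

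**Figure D3:**
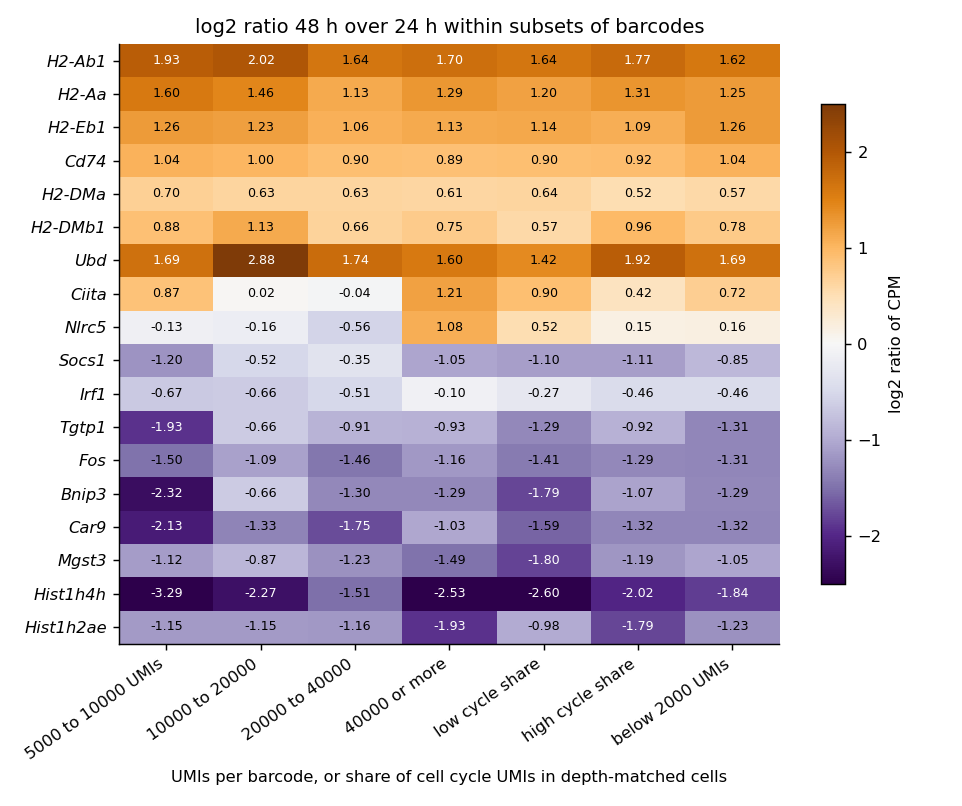
Log2 ratio of CPM, 48 h over 24 h, for 18 genes (rows) within 4 ranges of UMIs per cell, in depth-matched cells of low and high cell cycle share, and in barcodes below 2000 UMIs (columns), orange for higher and purple for lower at 48 h. H2-Ab1 lies between 1.62 and 2.02 in all 7 columns, while Ciita runs from −0.04 to 1.21.

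Promoter sequence bears on these genes because class II promoters carry a Y box, a CCAAT element read on either strand, next to the site at which CIITA is recruited. RefSeq promoters (GRCm38.p6, 250 bases before to 50 after the start) were matched for 10 of the 20 leading genes, 8 higher and 12 lower. Promoters of all 6 matched genes among the 8 higher ones are shown, and H2-Ab1 and Xkr4 were not matched. Each is written 5′ to 3′ on the gene's strand, and capitals mark CCAAT or its reverse complement ATTGG.
H2-Aa, chr17:34287774-34288073, minus strand: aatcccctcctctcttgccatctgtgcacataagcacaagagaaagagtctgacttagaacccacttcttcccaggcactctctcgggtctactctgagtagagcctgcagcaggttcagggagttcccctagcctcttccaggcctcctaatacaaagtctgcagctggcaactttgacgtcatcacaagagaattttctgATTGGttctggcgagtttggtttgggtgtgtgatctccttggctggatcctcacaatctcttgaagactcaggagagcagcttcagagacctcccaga
H2-Eb1, chr17:34305617-34305916, plus strand: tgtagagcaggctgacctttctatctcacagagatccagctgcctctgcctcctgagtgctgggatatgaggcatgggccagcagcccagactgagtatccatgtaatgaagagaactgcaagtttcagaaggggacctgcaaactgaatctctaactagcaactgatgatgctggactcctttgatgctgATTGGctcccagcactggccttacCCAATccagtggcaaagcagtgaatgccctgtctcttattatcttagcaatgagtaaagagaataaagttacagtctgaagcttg
Ubd, chr17:37193642-37193941, plus strand: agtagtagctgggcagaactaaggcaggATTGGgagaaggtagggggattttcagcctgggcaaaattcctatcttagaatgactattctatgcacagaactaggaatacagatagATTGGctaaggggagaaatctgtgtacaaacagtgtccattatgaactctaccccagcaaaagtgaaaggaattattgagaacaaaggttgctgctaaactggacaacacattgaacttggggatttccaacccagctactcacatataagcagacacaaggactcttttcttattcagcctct
Acod1, chr14:103046762-103047061, plus strand: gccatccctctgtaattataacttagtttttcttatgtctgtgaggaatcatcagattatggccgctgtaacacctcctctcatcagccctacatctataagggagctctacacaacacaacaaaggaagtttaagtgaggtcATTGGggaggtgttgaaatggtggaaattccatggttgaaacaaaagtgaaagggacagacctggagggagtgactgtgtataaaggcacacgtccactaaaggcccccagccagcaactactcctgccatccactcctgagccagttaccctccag
Dgkg, chr16:22657182-22657481, minus strand: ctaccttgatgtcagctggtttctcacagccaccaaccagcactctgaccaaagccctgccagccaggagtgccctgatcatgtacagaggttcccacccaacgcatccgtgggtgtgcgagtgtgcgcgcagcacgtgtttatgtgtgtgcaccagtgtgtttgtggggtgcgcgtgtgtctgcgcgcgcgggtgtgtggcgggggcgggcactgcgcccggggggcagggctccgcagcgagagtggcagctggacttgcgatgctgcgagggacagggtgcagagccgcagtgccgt
Clca3b, chr3:144849253-144849552, minus strand: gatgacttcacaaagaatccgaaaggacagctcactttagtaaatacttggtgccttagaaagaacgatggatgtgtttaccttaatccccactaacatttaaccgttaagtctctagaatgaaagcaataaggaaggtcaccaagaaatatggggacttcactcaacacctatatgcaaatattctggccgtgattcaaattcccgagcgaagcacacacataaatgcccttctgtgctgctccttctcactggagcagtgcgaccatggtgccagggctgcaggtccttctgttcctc
The capitals begin at −48 from the start in H2-Aa, at −59 and −35 in H2-Eb1, at −222 and −134 in Ubd and at −107 in Acod1, and Dgkg and Clca3b have none. CCAAT in either direction was present in 12289 of 32851 RefSeq promoters (37.4%), so its presence in 4 of these 6 is a description. The GAS pattern TTCNNNGAA, searched on both strands and found in 8.3% of promoters, did not occur in these 6 windows, which says only that these letters are not there. Of the other matched genes, Pyy had 1 CCAAT, and Mgst3, Sval1 and 2610528A11Rik had neither pattern.

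Ubd, which encodes the ubiquitin-like modifier FAT10 that targets proteins to the proteasome, was among the 8 higher genes. It stood at 0.24 CPM untreated, 250 CPM at 24 h and 719 CPM at 48 h. The log2 ratio was 1.52 (1.50 to 1.55) over all cells and 1.52 (1.46 to 1.58) in depth-matched cells, and it lay between 1.60 and 2.88 in the 4 depth ranges. Its share of thinned cells with a UMI was 44.9% at 24 h and 85.8% at 48 h. Barcodes below 2000 UMIs carried it at 325 CPM at 24 h and 1048 CPM at 48 h, above the level in cells.

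Acod1, the enzyme that makes itaconate and is best known from activated macrophages, had the highest ratio of the 8 genes. It had 1 UMI in untreated cells, 395 UMIs (5.56 CPM) at 24 h and 1472 UMIs (31.2 CPM) at 48 h. Its log2 ratio was 2.49 (2.33 to 2.65) over all cells and 1.69 (1.39 to 2.0) in depth-matched cells. A UMI of Acod1 was found in 3.93% of thinned cells at 24 h and 11% at 48 h, and 33.9% of its UMIs at 24 h came from 10 cells. Barcodes below 2000 UMIs carried it at 4.17 CPM at 24 h and 13.4 CPM at 48 h, so part of these UMIs can come from free RNA. Without the 10 cells with most Acod1 UMIs in each library the log2 ratio was 2.88. The macrophage genes Adgre1 and Tyrobp had no UMI in either treated library, Lyz2 had 1 UMI at 24 h and none at 48 h, and Csf1r had 8 and 13 UMIs.

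The MHC class I and immunoproteasome genes, which supply CD8+ T cells with peptides, showed no joint difference. Over all cells 4 of 21 were at least 2-fold higher, beside 7.33% of all genes, and none 2-fold lower, with a median of 0.10. In depth-matched cells 1 was higher and 1 lower, beside 0.49% and 3.75%, with a median of −0.08. The 4 were Ubd, H2-Q7, H2-Q6 and Nlrc5. H2-Q7, a class Ib molecule, had 115 CPM at 24 h and 298 CPM at 48 h (1.37 over all cells and 0.93 in depth-matched cells); it and H2-Q6 are near copies, so their counts may be split between them. Nlrc5, the coactivator of class I genes, had 42.8 and 91.4 CPM with a log2 ratio of 1.09 over all cells, but 0.32 in depth-matched cells and −0.13, −0.16, −0.56 and 1.08 in the 4 depth ranges. The classical class I gene H2-K1 had log2 ratios of 0.60 and 0.22, and Psmb8, an immunoproteasome subunit, stood at 474 CPM at 24 h with a 48 h level 1.04 times as high. H2-M3, which presents formylated peptides, was the lowest member, at −0.72 over all cells and −1.02 in depth-matched cells.

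IFN-γ signalling genes lay on both sides of 0. Over all cells 12 of 18 were higher, close to the share of all genes (9121 of 13772), and in depth-matched cells 4 of 18. None of the 18 was 2-fold higher and 2 were 2-fold lower in both sets, with medians of 0.15 and −0.12. The shares of all genes 2-fold lower were 1.31% and 3.75%. Socs1, the feedback inhibitor, had 1.28 CPM untreated, 79.2 CPM at 24 h and 38.3 CPM at 48 h. Its log2 ratio was −1.05 (−1.13 to −0.97) over all cells and −1.12 (−1.29 to −0.95) in depth-matched cells, and it was negative in each depth range, between −0.35 and −1.20. The related inhibitor Socs3 was the other one, at 4.74 and 2.24 CPM (−1.08 and −1.15). Stat2, a signal transducer shared with type I interferons, was the highest member over all cells, at 38.8 and 64.0 CPM (0.72), and had −0.05 in depth-matched cells. Irf1, an early target of the pathway, had 23.4, 331 and 310 CPM, with log2 ratios of −0.10 and −0.37. At 48 h Socs1 was thus at about 0.48 times its 24 h level over all cells.

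Families of cell-autonomous defence genes differed little over all cells. All 9 measured guanylate-binding proteins, GTPases that attack the vacuoles of intracellular pathogens, had positive ratios over all cells, beside 9121 of 13772 among all genes. Their median was 0.35 (0.09 with TMM scaling), and 5 of 9 were positive in depth-matched cells with a median of 0.07. Gbp2 had 571 CPM at 24 h and 639 CPM at 48 h. Gbp8 was 2-fold higher over all cells (1.16) but not in depth-matched cells (0.42). Of 12 immunity-related GTPases none passed 2-fold over all cells (median 0.06). In depth-matched cells 3 of 11 were at least 2-fold lower, beside 3.75% of all genes, and none was positive (median −0.43). Iigp1, the most abundant, stood at 1123 and 1116 CPM (−0.01 and −0.37). Tgtp1 had 44.6 and 23.4 CPM, with log2 ratios of −0.93 and −1.17, and its near copy Tgtp2 had −0.53 and −1.12.

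Chemokines, listed without regard to the cells they draw, were not higher as a group. Of 12 measured chemokines none passed 2-fold over all cells (median −0.04). In depth-matched cells 1 of 10 was higher and 2 were lower (median −0.43), beside 0.49% and 3.75% of all genes. Cxcl10 stood at 2.55 CPM untreated, 824 CPM at 24 h and 648 CPM at 48 h (−0.35 and −0.51), and Cxcl9 at 473 and 507 CPM (0.10 and −0.33). Cxcl16, which is anchored in the membrane, was higher in both sets, at 0.59 and 0.73. Ccl5 had log2 ratios of 0.85 and 2.52, with 84.6% of its UMIs at 24 h in 10 cells and a ratio of 3.04 without the 10 richest cells of each library. The chemokine list therefore held members with ratios on both sides of 0.

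Other lists around inflammation gave no 2-fold difference as groups. The 29 measured ISGF3-type interferon-stimulated genes had medians of 0.18 and −0.11. Rsad2 was the only one past 2-fold over all cells (1.17, and 0.27 in depth-matched cells), beside 7.33% of all genes higher. In depth-matched cells none of 27 was 2-fold higher and 2 were 2-fold lower, among them Ifit3 (−1.68), beside 0.49% and 3.75%. The 24 cell death and checkpoint genes had medians of 0.18 and −0.04 and none passed 2-fold in either set; Wars stood at 526 and 632 CPM. The 18 NF-κB targets had medians of 0.47 and 0.03. Nfkbia, the inhibitor of NF-κB, had 162 and 99.8 CPM (−0.70 and −0.78), and Sod2, a mitochondrial superoxide dismutase, 141 and 84.3 CPM (−0.74 and −0.61). The antimicrobial, complement and oxidase genes had medians of 0.46 and −0.29. Within that list complement C3 had 53 UMIs at 24 h and 181 at 48 h, with log2 ratios of 2.36 and 2.61, at under 4 CPM in both libraries. The ratio of 2.61, in depth-matched cells, rests on 7 and 41 UMIs (1.44 to 4.01), under the count minimum for that set. Of 16 measured genes 4 were at least 2-fold higher and 1 was lower over all cells, beside 7.33% and 1.31% of all genes. In depth-matched cells none of 13 was 2-fold higher and 3 were lower, beside 0.49% and 3.75%. The lower one over all cells was Saa1, an acute-phase protein gene, with 419 and 15 UMIs (−4.21 and −6.54). Without the 10 richest cells of each library Saa1 had 5 and 3 UMIs.

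**Figure D4:**
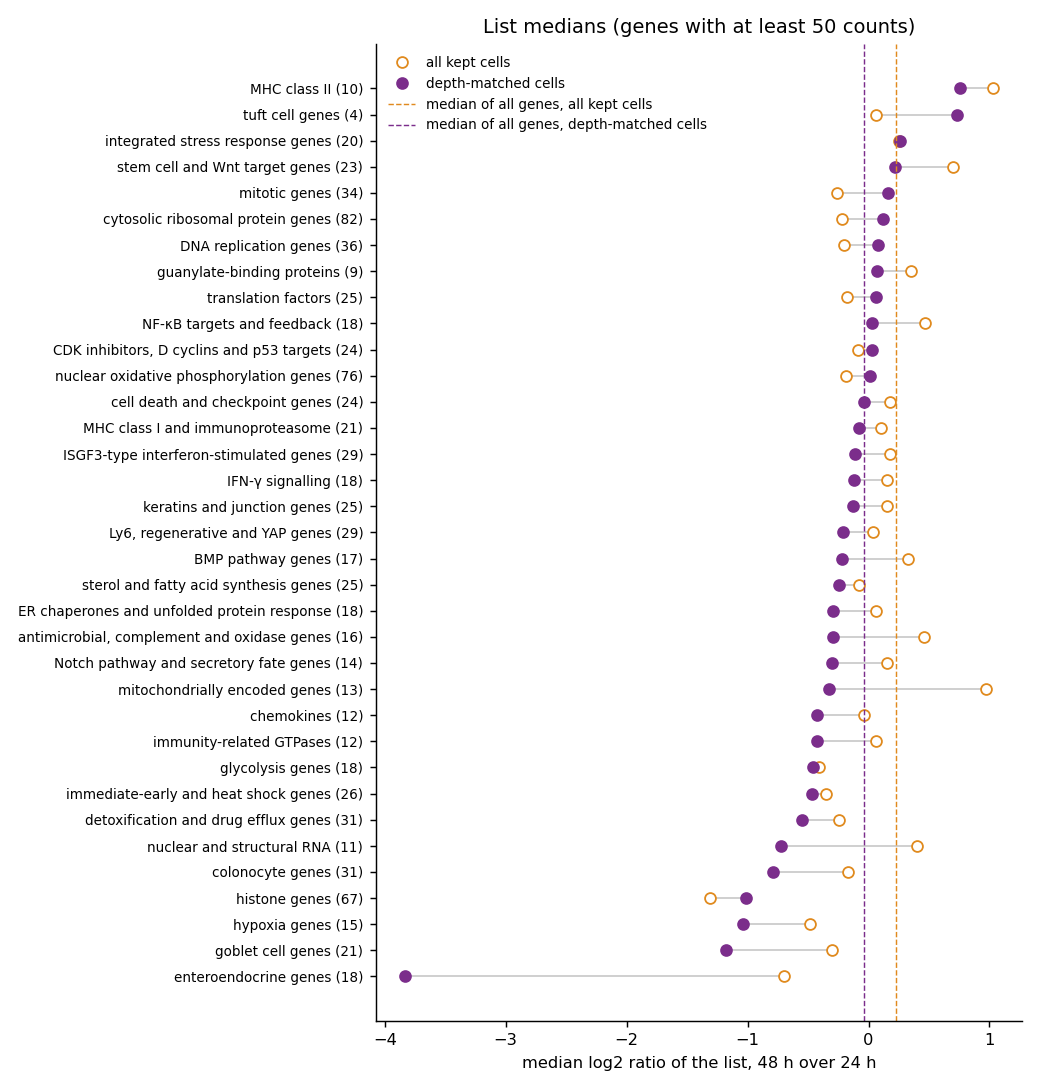
Median log2 ratio, 48 h over 24 h, of each of 35 gene lists over all kept cells (open orange) and in depth-matched cells (filled purple), with the number of genes measured over all cells in brackets and the medians of all genes as dashed lines (0.23 and −0.04). MHC class II lies at the top in both sets; the mitochondrially encoded genes run from 0.97 to −0.33.

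Histone genes formed the largest group of lower genes. Over all cells 45 of 67 measured histone genes were at least 2-fold lower at 48 h, none was 2-fold higher and the median was −1.31, beside 1.31% of all genes. In depth-matched cells 28 of 54 were at least 2-fold lower, with a median of −1.01, beside 3.75% of all genes. Replication-dependent histone mRNAs end mostly in a stem-loop rather than a poly(A) tail, so a library primed on poly(A) holds only a part of them. Their near-identical copies also make the count of a single gene uncertain.

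Among the 12 leading lower genes 7 were histone genes. Hist1h4h, which encodes histone H4, had 52.6 CPM untreated, 33.2 CPM at 24 h and 6.14 CPM at 48 h, with log2 ratios of −2.43 (−2.62 to −2.26) and −2.12 (−2.50 to −1.75). Hist1h4c, another H4 gene, had ratios of −1.98 and −1.87. The H2A genes Hist1h2ab, Hist1h2an, Hist1h2ae and Hist1h2ap had ratios over all cells from −2.23 to −1.65 and in depth-matched cells from −1.58 to −1.41, and the H2B gene Hist1h2bj had −1.63 and −1.42. Hist1h2ae was lower in cells of low cell cycle share (−0.98) and of high share (−1.79). By contrast H2afz, a replacement histone made also outside S phase, had 2015 and 1551 CPM, with log2 ratios of −0.38 and 0.10.

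The histone difference was not accompanied by a difference of like size in other cell cycle genes. None of 36 DNA replication genes and none of 34 mitotic genes passed 2-fold in either set. Among all genes 7.33% were 2-fold higher and 1.31% lower over all cells, and 0.49% and 3.75% in depth-matched cells. The replication list had medians of −0.20 over all cells and 0.08 in depth-matched cells, and the mitotic list of −0.26 and 0.16. Over all cells 8 of 36 replication genes and 5 of 34 mitotic genes had positive ratios, beside 9121 of 13772 among all genes. In depth-matched cells 20 of 36 and 24 of 34 had positive ratios. Mki67, which marks cycling cells, was among the 5, at 356 and 361 CPM (0.02 and 0.12). So was Top2a, a topoisomerase of dividing cells, at 669 and 672 CPM (0.01 and 0.32). Aurkb, the lowest mitotic member over all cells, had 53.1 and 28.4 CPM (−0.90 and −0.30). Dut and Gins2, both used in DNA synthesis, had −0.63 and −0.80 over all cells and −0.11 and −0.52 in depth-matched cells. The median cell cycle share was 37 per 5000 UMIs at 24 h and 32 at 48 h.

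Hypoxia genes, targets of HIF that answer low oxygen, were lower at 48 h, most clearly between cells of like depth. Over all cells 3 of 15 were at least 2-fold lower (1.31% of all genes) with a median of −0.48, and in depth-matched cells 8 of 15 were at least 2-fold lower (3.75% of all genes), all 15 were negative and the median was −1.04. Bnip3, a receptor of mitophagy, had 85.1 CPM untreated, 74.1 CPM at 24 h and 33.2 CPM at 48 h, with log2 ratios of −1.16 and −1.63. Ankrd37 had 23.4 and 9.65 CPM (−1.28 and −1.52). Car9, a membrane carbonic anhydrase, had 29.3 and 14.8 CPM (−0.98 and −1.53), and Ndrg1 had 42.6 and 26.0 CPM (−0.71 and −2.18). The median of the list was negative in each depth range, at −1.91, −0.77, −1.09 and −0.54. Kdm3a, a HIF target that removes histone methyl marks, was the highest member, at 0.44 over all cells and −0.30 in depth-matched cells.

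Glycolysis genes were lower to a smaller degree. Over all cells 3 of 18 had positive ratios, beside 9121 of 13772 among all genes, and the median was −0.41. There 1 gene was 2-fold lower, beside 1.31% of all genes. In depth-matched cells the median was −0.46 with 1 of 18 genes 2-fold lower, beside 3.75% of all genes. The list medians were −0.72, −0.06, −0.25 and −0.30 in the 4 depth ranges. Eno1, which makes phosphoenolpyruvate, was the lowest over all cells, from 446 to 182 CPM (−1.30 and −0.96). Ldha, which makes lactate, had 1347 and 735 CPM (−0.87 and −0.56). Gapdh had 3371 and 2487 CPM (−0.44) but was level in depth-matched cells (0.03). Slc16a3, the lactate exporter, stood at 56.0 and 40.7 CPM.

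Several immediate-early genes, which answer growth factors and stress within minutes, were also lower. Listed together with heat shock genes, 26 genes had medians of −0.35 and −0.47. Over all cells 2 genes were 2-fold lower, beside 1.31% of all genes, and in depth-matched cells 6 of 25, beside 3.75%. These 6 were Fos, Junb, Dusp1, Zfp36, Klf2 and the heat shock gene Hspa1a. Fos, a subunit of AP-1, had 269 CPM untreated, 104 CPM at 24 h and 44.5 CPM at 48 h, with log2 ratios of −1.23 (−1.30 to −1.16) and −1.41 (−1.56 to −1.26), and lay between −1.50 and −1.09 in the 4 depth ranges. Hsp90ab1, the most abundant chaperone of the list, was level at 5060 and 4983 CPM (−0.02 and 0.29). Cebpb, a transcription factor listed with the integrated stress response, had 31.8 and 13.8 CPM (−1.20 and −1.23), while the 20 genes of that list had medians of 0.25 and 0.26. Within it Slc7a11, the cystine importer, had 33.6 and 80.6 CPM (1.26 and 0.77), with ratios of 0.28, −0.16, −0.35 and 1.43 in the 4 depth ranges.

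Lower genes of detoxification included glutathione transferases. Mgst3, a microsomal glutathione transferase outside the list, had 156 CPM untreated, 98.3 CPM at 24 h and 35.2 CPM at 48 h, with log2 ratios of −1.48 (−1.56 to −1.40) and −1.61 (−1.78 to −1.44). In the list of 31 measured detoxification genes 5 were at least 2-fold lower and 1 was higher over all cells (median −0.24), beside 1.31% and 7.33% of all genes, and in depth-matched cells 7 of 28 were lower (median −0.55), beside 3.75%. Gsta1 had 98.0, 13.8 and 3.07 CPM (−2.17 and −1.83), and Gsta4 had 180, 59.4 and 19.7 CPM (−1.59 and −0.97). Gclm, a subunit of the enzyme that starts glutathione synthesis, stood at 224 CPM untreated, 224 CPM at 24 h and 238 CPM at 48 h (0.09 and 0.62). Its ratio was positive in each depth range, between 0.28 and 0.93. The leading lower gene 2610528A11Rik, an epithelial secreted protein gene, had 401, 242 and 89.4 CPM (−1.44 and −1.84). These genes were already lower at 24 h than in untreated cells, apart from Gclm.

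The 24 h UMIs of some secretory genes came mostly from few cells. Pyy, a peptide hormone of enteroendocrine cells, had the largest ratio of all leading genes, from 10165 UMIs at 24 h to 8 at 48 h (−9.72, and −7.51 in depth-matched cells), but 99.1% of its UMIs at 24 h came from 10 cells. Zg16, a lectin of goblet cells, had 1575 and 26 UMIs (−5.33 and −2.80), with 97.3% of the 24 h UMIs in 10 cells. Without the 10 richest cells of each library the ratio of Zg16 was −1.01, and Pyy had 96 UMIs at 24 h and 0 at 48 h. Sval1, a secreted protein gene, had 54.5% of its 24 h UMIs in 10 cells, with −1.97 and −3.03 overall and −1.37 without these cells. In pooled sums fewer cells of a type and less RNA per cell cannot be told apart.

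Of 18 measured enteroendocrine genes 8 were at least 2-fold lower over all cells (median −0.70, beside 1.31% of all genes). In depth-matched cells all 13 measured ones were (median −3.83, beside 3.75%). There the summed list had 705.6 CPM at 24 h and 48.4 CPM at 48 h. Genes thus met the count minimum mostly through 24 h UMIs, which favours lower ratios, so this count is a description only. In cells at or above their own library's median depth 3 of 14 were 2-fold higher and 4 lower (median −0.16), and over all cells the summed list had 289 CPM at 24 h and 90.5 CPM at 48 h. Of 21 goblet cell genes 2 were 2-fold lower over all cells (median −0.30) and 13 of 19 in depth-matched cells (median −1.18). The shares of all genes were 1.31% and 3.75%. The goblet median was 1.32, however, in cells of 10000 to 20000 UMIs and −1.06 in cells of 40000 UMIs or more. Muc2, the main colonic mucin, had 205 CPM untreated, 32.6 CPM at 24 h and 20.8 CPM at 48 h (−0.65 and −1.33), with 61.1% of the 24 h UMIs in 10 cells and a ratio of 0.06 without them. Tff3, which acts with mucins, had 316 and 250 CPM (−0.34 and −1.14) and a ratio of −0.01 without the 10 richest cells. Of 31 colonocyte genes 1 was 2-fold higher and 1 lower over all cells (median −0.17), beside 7.33% and 1.31% of all genes. In depth-matched cells 11 of 28 were lower (median −0.79), beside 3.75%. Krt20, the colonocyte keratin, had 27.6 and 26.1 CPM (−0.08 and −1.28), with 57.9% of the 24 h UMIs in 10 cells and a ratio of 0.49 without the 10 richest cells of each library. Only 4 of 15 tuft cell genes were measured over all cells (median 0.06), and only 2 in depth-matched cells (median 0.73). The direction for goblet and colonocyte genes, and the size for enteroendocrine genes, thus depended on which cells were summed.

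Beyond the class II genes, Ubd and Acod1, the higher genes were Dgkg, Xkr4 and Clca3b. Dgkg, a diacylglycerol kinase, had 17.0 CPM untreated, 6.70 CPM at 24 h and 22 CPM at 48 h (1.72 and 1.17). Xkr4, a member of the XK family, had 20.4, 7.25 and 23.1 CPM (1.67 and 1.09), and Clca3b, a chloride channel accessory gene, 133, 39.1 and 85.0 CPM (1.12 and 1.02, and 0.86 with TMM scaling). All 3 were lower at 24 h than in untreated cells, unlike the class II genes, and the 48 h level of Clca3b was still below the untreated one. In barcodes below 2000 UMIs the ratio was −0.07 for Xkr4, 0.58 for Dgkg and 0.72 for Clca3b. The 4 depth ranges gave 0.68, 0.57, 0.69 and 1.52 for Dgkg and 1.99, 1.16, 0.26 and 1.45 for Xkr4. For Clca3b they gave 1.11, 0.32, 0.79 and 1.06, so each gene was under 2-fold in some range.

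Of the stem cell and Wnt target genes 16 of 23 were higher at 48 h over all cells, close to the share of all genes (9121 of 13772). The direction of the list varied with depth. Of 23 measured genes 5 were at least 2-fold higher over all cells (median 0.70, beside 7.33% of all genes), and none of 20 in depth-matched cells, where 18 were positive (median 0.22, beside 0.49% of all genes). The list medians were 0.13, −0.23, −0.36 and 0.57 in the 4 depth ranges. Lgr5, the stem cell receptor for R-spondin, had 151 CPM untreated, 55.2 CPM at 24 h and 89.8 CPM at 48 h (0.70 and 0.40), but −0.15, −0.43, −0.51 and 0.75 in the 4 depth ranges. Axin2 had 94.7, 62.3 and 72.2 CPM (0.21 and 0.13). Myc was lower, from 34.5 to 26.7 CPM (−0.37 and −0.27). The median of the list was 0.44 in cells of low and 0.07 in cells of high cell cycle share.

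Ratios over all cells also varied with gene span. Protein-coding genes that span under 5 kb had a median log2 ratio of −0.23 over all cells (1333 genes), and those that span 200 kb or more one of 0.80 (611 genes), of which 24.9% were at least 2-fold higher. In depth-matched cells the same classes had −0.09 and 0.11. Within depth ranges the order varied: the longest genes had 0.19 in cells of 5000 to 10000 UMIs, −0.47 at 10000 to 20000, −0.59 at 20000 to 40000 and 0.77 at 40000 or more, and the shortest had −0.15, 0.19, 0.14 and −0.20. Barcodes below 2000 UMIs gave −0.04 and −0.15 for the shortest and longest class. Dgkg and Xkr4 are long genes, at 189 and 466 kb, while H2-Aa spans 5.08 kb and Ubd 2.20 kb.

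**Figure D5:**
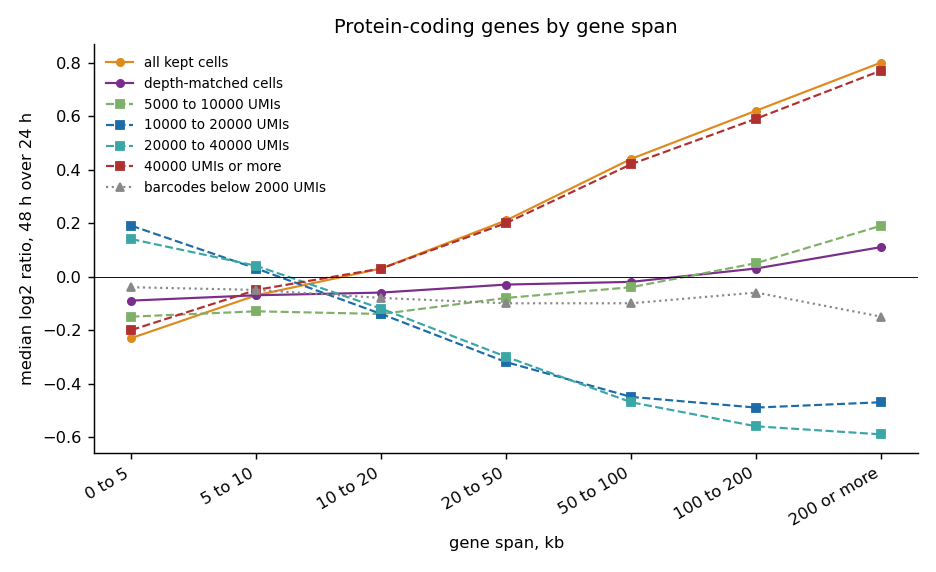
Median log2 ratio, 48 h over 24 h, of protein-coding genes in 7 classes of gene span, over all kept cells, in depth-matched cells, in 4 ranges of UMIs per cell and in barcodes below 2000 UMIs. Over all cells the median runs from −0.23 to 0.80 with span, and in depth-matched cells from −0.09 to 0.11.

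All 13 mitochondrially encoded genes were higher at 48 h over all cells, 6 of them at least 2-fold (median 0.97), beside 7.33% of all genes. In depth-matched cells 2 of 13 were higher and none passed 2-fold (median −0.33). mt-Co3, a subunit of cytochrome c oxidase, had 4081 and 10771 CPM (1.40) but 0.02 in depth-matched cells. Nuclear and structural RNAs had medians of 0.40 and −0.72, with Malat1, a nuclear RNA, at 3035 and 4909 CPM (0.69 and −0.89) and Neat1 at 183 and 398 CPM (1.12 and 0.15). The 82 cytosolic ribosomal protein genes had medians of −0.22 and 0.12, the 25 translation factors −0.18 and 0.06, and the 76 nuclear oxidative phosphorylation genes −0.19 and 0.01. All 5 medians changed sign between the 2 sets of cells.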

How the data were processed

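The authors made 3′ v3 droplet libraries (10x Genomics) and deposited, for each library, a UMI count matrix with genes in rows and barcodes in columns, whole numbers without normalization that still held background barcodes. The submitters' processing notes name Cell Ranger 6.0.1 and mm10; the annotation release is not given in the sources used here. Cells were kept as in the study's filter, counts were summed per library and scaled to CPM, and the log2 ratio of 48 h over 24 h was taken where a gene reached 50 counts in the 2 libraries together. Ratios carry exact conditional binomial intervals at 95%. Because depth per cell differed, the comparison was repeated in depth-matched cells (bins of log2 UMI count of width 0.5, seed 7), in 4 ranges of UMI count and by cell cycle share. Depth ranged from 47243500 to 71077817 UMIs in kept cells. Doublets were not removed, which bears on the deepest cells. Gene positions and spans came from GENCODE vM21.

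The gene lists, members and tests were chosen with earlier results of these data known. Named genes were the 12 largest rises and falls past 2-fold in both sets of cells with at least 20 CPM in the higher of both libraries (8 rises qualified). The highest, lowest and most abundant member of each list and genes the study names were added. Other list members were named after their values were seen. A gene is called measured if it met the count minimum in that set. One gene of the lists is not reported here. Scripts were tested on simulated data. Python 3.11.15, numpy 2.4.6, scipy 1.17.1, pandas 2.3.3, matplotlib 3.10.9, R 4.3.3, edgeR 4.0.16 (TMM factors only) and DESeq2 1.42.0 (median-of-ratios factors only) were used. Alternatives were other UMI, mitochondrial and count limits, scaling, the mean over cells, barcodes shared between libraries left out and, added after seeing the data, cells above or below their library's median depth, a second draw and each named gene without its 10 richest cells.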

Additional observations from a re-analysis of the deposited data

How the results depend on the processing

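The count of genes at least 2-fold higher at 48 h, 1010 over all cells, was 457 with a minimum of 10000 UMIs, 397 for the mean over cells of CPM, 423 with TMM and 375 with median-of-ratios scaling, 2872 with no count minimum, 474 with at least 200 counts, 56 in depth-matched cells, and 107 and 65 in those of low and high cell cycle share. The count of genes at least 2-fold lower at 48 h, 180, was 373, 371, 411 and 543 under the mean over cells, TMM, median of ratios and no minimum, 428 in depth-matched cells and 317 in those of low cell cycle share. Alternatives chosen after seeing the data gave 555 higher and 364 lower genes in cells below their own library's median depth, and 45 and 419 in a second draw of depth-matched cells. Among named genes past 2-fold over all cells the sign turned for some. In depth-matched cells of high cell cycle share these were Nkd1 (−1.18), mt-Co3 (−0.27) and Ly6g6c (0.82). In depth-matched cells and in those of low share they were Car4 (−0.62 and −0.40), Bmp7 (−0.45 and −0.77) and Ptgs2 (−0.11 and −0.68). In cells below the median depth they were Car4 (−0.40), Bmp7 (−0.26) and Ptgs2 (−0.53). The sign also turned in the second draw for Car4 (−2.92), Bmp7 (−0.46) and mt-Co3 (−0.002). In cells at or above the median depth it turned for Saa1 (0.66). Named genes under 2-fold over all cells turned too. In depth-matched cells examples were Malat1 (0.69 to −0.89), mt-Cytb (0.63 to −0.77), Sytl2 (0.75 to −0.72) and Stat2 (0.72 to −0.05). The cause was not tested. No paired analysis was possible because each time has 1 library. Depth limits low genes: genes below 50 counts over all kept cells were not compared, and single cells cannot be told from free RNA. For named genes this minimum was not applied within subsets, where some turned signs rest on few UMIs. In depth-matched cells Ptgs2 had 9 and 8 UMIs (−1.69 to 1.43) and Bmp7 17 and 12 (−1.64 to 0.71). Car4 had 56 and 35 (−1.27 to 0.01). At high share the intervals were −4.64 to 1.63 for Nkd1 and −1.40 to 3.45 for Ly6g6c. These intervals include 0, unlike that of mt-Co3 at high share (−0.29 to −0.26). Of the 35 list medians 19 were positive over all cells and 8 with TMM scaling.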

Other observations

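Other lists had no joint 2-fold difference. Of 17 measured BMP pathway genes 1 was at least 2-fold higher over all cells (median 0.33), beside 7.33% of all genes. In depth-matched cells 1 of 15 was 2-fold lower (median −0.22), beside 3.75%. The BMP targets Id1 and Id3 were lower in both sets, Id1 from 394 to 217 CPM (−0.86 and −0.47) and Id3 from 156 to 78.0 CPM (−1.0 and −0.68), and Bmp2 had 9.20 and 7.03 CPM (−0.39 and −1.19). The list of CDK inhibitors, D cyclins and p53 targets had medians of −0.09 and 0.03. Cdkn1a, which encodes p21, had 165 CPM untreated, 227 CPM at 24 h and 163 CPM at 48 h (−0.48 and −0.34). Its direction varied with the cells compared, at −1.11, 0.88, −0.28 and −0.15 in the 4 depth ranges. It was −0.76 in cells of low and 0.52 in cells of high cell cycle share. Among Ly6, regenerative and YAP genes (medians 0.04 and −0.21), Ly6a stood at 905, 3458 and 3819 CPM and Ly6e at 274, 513 and 706 CPM (0.46 and 0.47), while Anxa1 had 220, 143 and 119 CPM. Keratin and junction genes had medians of 0.15 and −0.13, and sterol and fatty acid synthesis genes of −0.08 and −0.24. ER chaperones had 0.06 and −0.29, and Notch pathway genes 0.15 and −0.30. All lay below the medians of all genes (0.23 and −0.04). In depth-matched cells 7 of 23, 6 of 25, 1 of 18 and 4 of 11 genes of these lists were positive. There 2 keratin and junction genes and 2 Notch genes were 2-fold lower, beside 3.75% of all genes, and no sterol or ER chaperone gene was.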
